A study of Mus musculus with 2 samples.

Results

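The Sfmbt2 intron miRNA cluster of the mouse was examined in microRNA-seq libraries of the adrenal gland. Its members are the 119 miRNA genes of GENCODE M21 that lie wholly inside a window around the imprinted Sfmbt2 gene, on the plus strand of chromosome 2 of mm10, out of 2202 miRNA genes in the files. They were chosen by position and not by level. Of the 119, 71 carry Mir297, Mir466, Mir467 or Mir669 names and 48 carry Gm names, the placeholder symbols of genes without an approved one. The libraries come from adrenal glands of male B6CASTF1/J mice, an F1 hybrid of the C57BL/6 and CAST strains, at 14 days of age. There is 1 group of 2 biological replicates, with no treatment and no other genotype. The labels name 3 males for each library and 1 donor record for both, and the sources used here do not say whether RNA of several animals was pooled. Replicate 1 held 3024662 sense counts in miRNA genes and replicate 2 held 3464837, so that 1 count was worth 0.331 and 0.289 CPM, the count scaled to a common library total.

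Sfmbt2 encodes a Polycomb-group protein and is an imprinted gene, known to be transcribed from the paternal copy in extraembryonic tissues. The miRNA cluster in its intron is found in rodents, arose by repeated tandem duplication and is best known from the placenta and from embryonic stem cells. A miRNA gene is transcribed as a hairpin, from which a mature miRNA of one or both arms is cut, and bases 2 to 8 of the mature form, the seed, pair with target messenger RNAs. The hairpins of the cluster are rich in UG and CA repeats. Because the copies are so alike, a short read from one of them often matches several. The deposited counts leave out every read that maps to several places.

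Mature sequences from RefSeq (GRCm38.p6) matched 8 of the 10 genes of these families that lie outside the cluster. All 8 are shown because most of their seeds, in capitals, recur in hairpins of the cluster.
miR-467g: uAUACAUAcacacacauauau
miR-466j: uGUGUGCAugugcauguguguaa
miR-466i-3p: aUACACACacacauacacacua
miR-466k: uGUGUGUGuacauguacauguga
miR-466q: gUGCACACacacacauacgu
miR-467f: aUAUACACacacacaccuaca
miR-669n: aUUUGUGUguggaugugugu
miR-467h: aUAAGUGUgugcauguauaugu
The seed of miR-467g, AUACAUA, occurred on the sense strand of 78 of the 119 member hairpins (65.5%), against 3.12% of the 2083 other miRNA hairpins, and on either strand in 79 members. GUGUGCA of miR-466j occurred in 62 member hairpins and 2.11% of the others, UACACAC of miR-466i-3p in 60 and 5.76%, and GUGUGUG of miR-466k in 50 and 7.68%. UGCACAC of miR-466q occurred in 30 members and 1.34% of the others. On either strand these 4 seeds were found in 70, 103, 90 and 70 members. UAUACAC of miR-467f occurred in 27 members and 4.13% of the others on the sense strand, and in 96 members on either. The rarest were UUUGUGU of miR-669n, in 10 members (8.40%) and 2.26% of the others, and UAAGUGU of miR-467h, in 1 member (0.840%) and 0.624% of the others. On either strand they occurred in 15 and 2 members. These letter strings overlap one another in the repeats and are no evidence of a mature miRNA at those places. None of the 8 whole mature sequences occurred in a member hairpin.

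All 119 members lie between positions 10465287 and 10518279, a stretch of 53.0 kb, inside the body of Sfmbt2 (chromosome 2, 10370510 to 10595253, plus strand). They fall in a single intron of 62.5 kb, from 10461473 to 10523944, which follows exon 10 in one of the annotated transcripts that span it and exon 11 in the other. The other 5 of the 7 annotated Sfmbt2 transcripts end at or before position 10439137, upstream of this intron. No member overlaps an exon. The first member starts 3.81 kb after the upstream exon and the last ends 5.67 kb before the downstream one. In hairpin length the members ranged from 73 to 127 bases, with a median of 98. Their median GC content was 37.3%, against 51.7% in the other miRNA hairpins and 43.5% in the distal Dlk1-Dio3 cluster. UG, GU, CA and AC steps made up 32.5% to 66.7% of neighbouring bases in the members, with a mean of 47.7% ± 7.70 (SD over hairpins). In the others they made up 3.26% to 90.9%, with a mean of 29.1% ± 11.9, so the ranges overlap. The predicted folding energy per base, a median of -0.38 kcal/mol, was close to the -0.37 of the other hairpins.

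The 119 hairpins hold 88 distinct sequences. In 16 sets of identical hairpins, 47 members have at least 1 exact copy. The largest set is that of Mir669a-4 to Mir669a-12 with 9 copies, followed by 7 copies that join 6 Mir467a genes with Gm25022. No member with an exact copy had a count in either library. Consecutive Mir467a genes start 2.41 to 4.88 kb apart, with a median of 2.46 kb, and hairpins of the other names lie between them.

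Mir467d and Mir467e made up most of what the cluster yielded in both libraries. By assigned sense counts the cluster held 4160 counts in replicate 1 and 3487 in replicate 2. This is 0.138% of miRNA counts in replicate 1 (exact interval 0.133 to 0.142) and 0.101% in replicate 2 (0.0973 to 0.104), or 1191 ± 261 CPM (SD, n = 2). In RNA from a whole gland, fewer cells of a type and less RNA per cell cannot be told apart. A read spans a whole mature miRNA, so counts were not divided by hairpin length. In each library 11 members had a count, and 13 had one in at least 1 library. Across all 2202 miRNA genes, 33.7% had a count, against 10.9% of members. No member had an opposite-strand count.

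Of the 119 members 8 were detected, that is, at 2 CPM or more in both libraries. That is 6.72% of members, and 16.5% of all miRNA genes were detected. The member just inside this limit was Mir669h, with 2.02 CPM in its lower library, and the one just outside was Mir466n, with 1.65 and 1.44 CPM. Another 4 members had 1 to 9 counts in the 2 libraries together. The other 106 members had no count, for which 3 counts set a limit of 0.992 CPM in replicate 1 and 0.866 in replicate 2. Those limits apply to reads that map to 1 place and cannot show that a repeated member was silent.

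**Figure D1:**
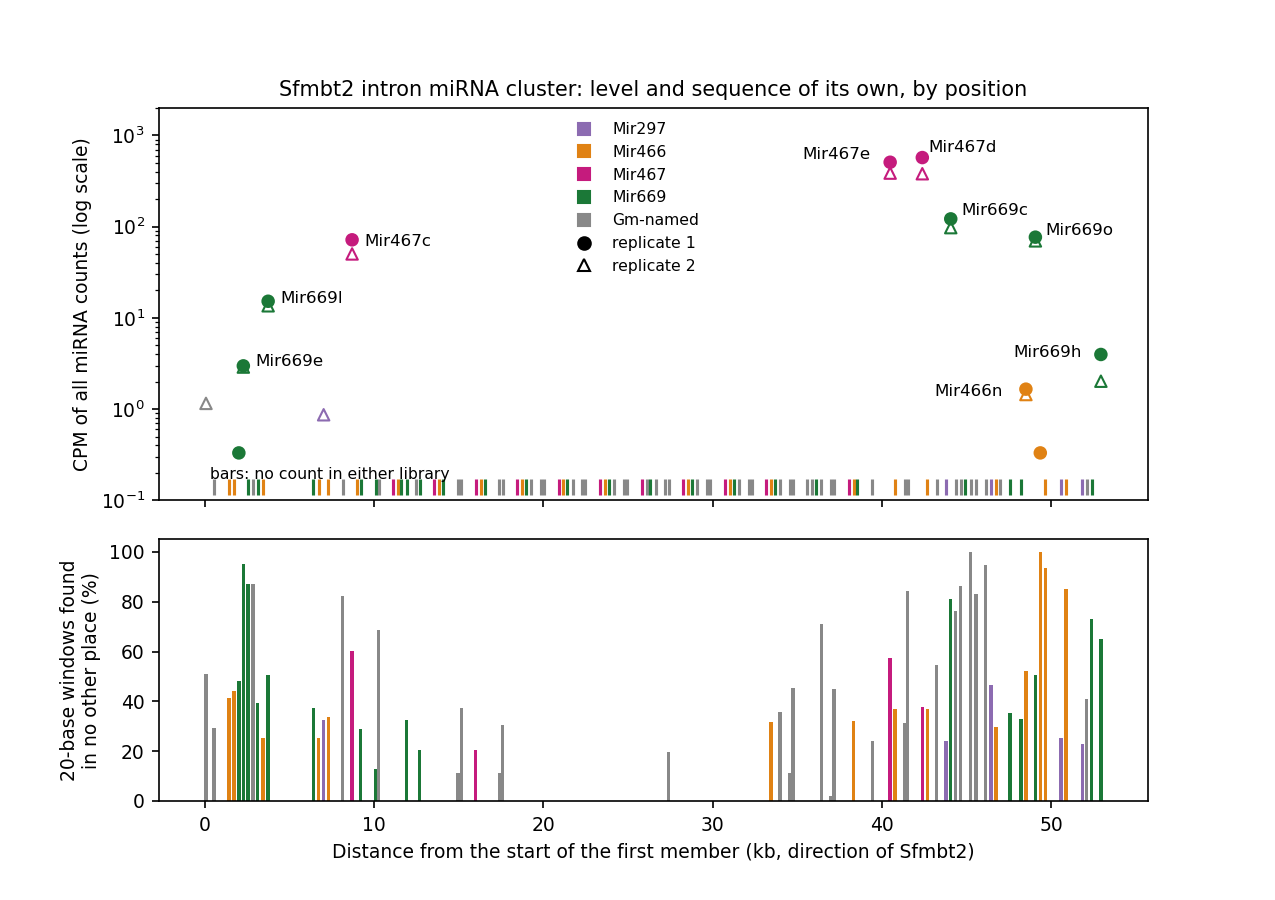
The upper panel plots CPM (log scale) of each member by its distance from the start of the first member in kb, filled circles for replicate 1, open triangles for replicate 2, and short bars along the bottom for the 106 members with no count. The lower panel gives for each hairpin the percent of 20-base windows found in no other miRNA hairpin. Of the 72 members in the longest stretch without counts, 52 have no bar and 20 have one, up to 70.9%.

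The Mir467 family held both the most abundant members and members without any count. Mir467d (10507630 to 10507714) had 1731 counts, or 572.3 CPM, in replicate 1 and 1318 counts, or 380.4 CPM, in replicate 2. Mir467e (10505721 to 10505807) had 1538 counts, or 508.5 CPM, in replicate 1 and 1339 counts, or 386.5 CPM, in replicate 2. Mir467d and Mir467e share 92.0% of aligned hairpin positions and exchanged order: Mir467d was 1.12-fold above Mir467e in replicate 1 (exact interval 1.05 to 1.21) and not separable from it in replicate 2, at 0.984-fold (0.912 to 1.06). Together they made 78.6% and 76.2% of the cluster's counts. They took places 113 and 120 among the 2202 miRNA genes by mean CPM.

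Mir467c (10473931 to 10474027) had 217 counts, or 71.7 CPM, in replicate 1 and 174 counts, or 50.2 CPM, in replicate 2. Its hairpin shares 83.5% of aligned positions with Mir467d and 83.7% with Mir467e. The other Mir467 members, Mir467b and 10 Mir467a genes, had no count. All of the Mir467a hairpins lack a 20-base window of their own, whereas Mir467b has 20.4% of its windows to itself. Thus 3 of the 14 Mir467 members carried 984.8 ± 237.2 CPM between them, and 11 carried none.

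Mir669 was the other family with detected members. Mir669c (10509296 to 10509404) had 368 counts, or 121.7 CPM, in replicate 1 and 338 counts, or 97.5 CPM, in replicate 2. Mir669o (10514300 to 10514395) had 232 counts, or 76.7 CPM, and 242 counts, or 69.8 CPM. Mir669c was above Mir669o in both libraries, by 1.59-fold (1.34 to 1.88) and 1.40-fold (1.18 to 1.65). Mir669o was not separable from Mir467c in replicate 1, at 1.07-fold (0.885 to 1.29), and was 1.39-fold above it in replicate 2 (1.14 to 1.70).

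Mir669l (10468971 to 10469068) lies upstream of Mir467c. It had 46 counts, or 15.2 CPM, in replicate 1 and 47 counts, or 13.6 CPM, in replicate 2. Mir669h, the last member of the cluster, had 12 and 7 counts, or 3.97 and 2.02 CPM. Mir669e had 9 and 10 counts, or 2.98 and 2.89 CPM. Mir669h and Mir669e could not be ordered, with exact intervals of their ratio of 0.516 to 3.58 in replicate 1 and 0.226 to 2.04 in replicate 2. In all, 5 of 29 Mir669 members were detected and summed with the rest of the family to 203.4 ± 24.7 CPM. The 12 Mir669a genes had no count, and 11 of them lack a window of their own. Mir669a-1 shares 92.8% of aligned positions with the detected Mir669o.

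The Mir466, Mir297 and Gm-named members were near the limit of the assay. Of 23 Mir466 members, Mir466n had 5 counts in each library and Mir466g had 1 count in replicate 1. Of 5 Mir297 members, Mir297a-2 had 3 counts in replicate 2 and none in replicate 1. Among 48 Gm-named members, Gm22072, the first of the cluster, had 4 counts in replicate 2. Mir669f had 1 count in replicate 1. Each of these levels rests on at most 10 reads, and no Mir466, Mir297 or Gm-named member was detected.

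**Figure D2:**
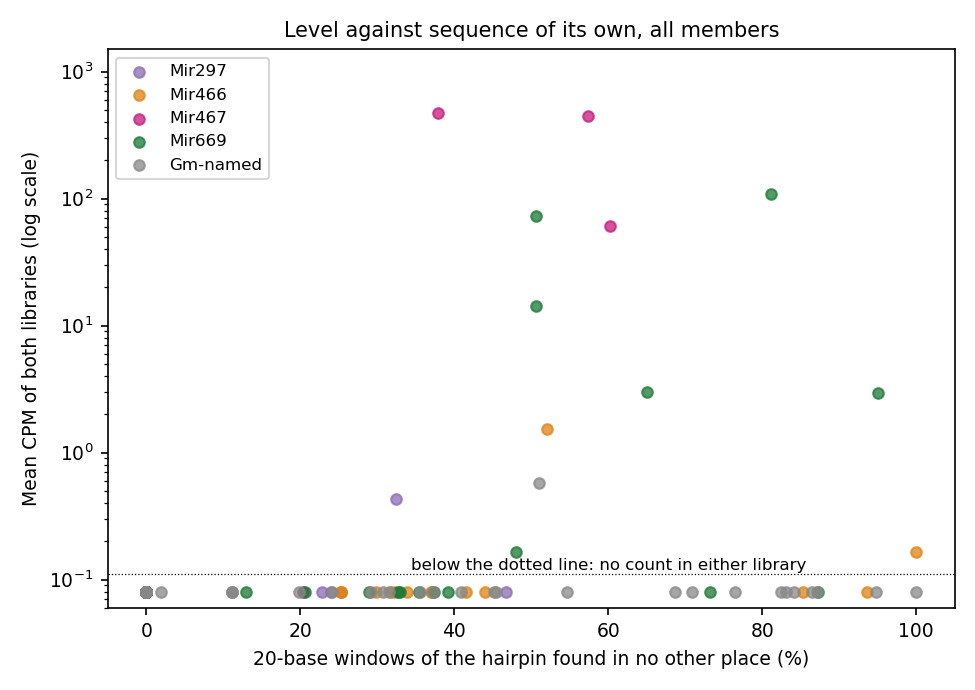
Each point is 1 of the 119 members, placed by the percent of its 20-base hairpin windows found in no other miRNA hairpin (horizontal) and by its mean CPM over both libraries (log scale, vertical), with members without a count below the dotted line. Mir467d, at 476.3 CPM, has 37.9% of its windows to itself, and members with 80% or more include several with no count.

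The scope for loss of reads to several matching places was gauged from sequence shared among the hairpins, with no read examined. Of the 119 members, 117 share at least 1 window of 20 bases with another miRNA hairpin (98.3%, against 50.3% of all miRNA genes), 116 of them with another member and 33 with a hairpin outside the cluster. In 54 members every window is shared (45.4%, against 13.7% of all miRNA genes), so that no read of 20 bases from them can be placed. None of these 54 had a count, which the way of counting fixes. The other 65 members have at least 1 window of their own, and 13 of them had a count while 52 did not. In the 13 the share of such windows ran from 32.4% to 100%, with a median of 52.0%. Windows cover the whole hairpin, while reads come from the mature arms, whose positions in the members were not available. A window of its own may therefore lie outside the sequence that is read, and a member with such windows need not be countable.

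Members with the most sequence of their own were not those with the most counts. Yet 10 of the 25 members with 50% or more of their windows to themselves had a count, against 3 of the 94 below 50%. Those 94 include the 54 that could have no count. The only members that share no window at all are Mir466g, with 1 count in replicate 1 and none in replicate 2, and Gm22239, with none in either library. Mir467d, the highest member by mean CPM, has 37.9% of its windows to itself. Mir669c has 81.1%, Mir467c 60.3%, Mir467e 57.4%, Mir669o 50.6% and Mir669l 50.6%. Across the 119 members Spearman's rho between the percent of own windows and mean CPM was 0.416, and Pearson's r on log2 of CPM plus 1 was 0.268. Part of this is built in, since the 54 members without a window of their own could have no count. Over the other 65 members, a restriction chosen after seeing the data, rho was 0.315 and r was 0.138. These are given as a description, since the members share libraries, locus and sequence.

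The cluster was split at its longest run of members without a count, with counts found on both sides. This run was picked from the counts themselves, so its lack of counts and the counts at its edges are no separate result. From Mir466b-1 to Gm26398, positions 10474219 to 10504773, 72 consecutive members over 30.6 kb had no count in either library. In 52 of them every window is shared, and the median percent of own windows is 0. Another 20 have windows of their own and no count, among them Gm23988 with 70.9% and Gm26491 with 68.6%, both named after their values were seen. Whether those windows lie in a mature arm is not known. Upstream of this stretch 17 members from Gm22072 to Mir467c held 273 counts in replicate 1 and 238 in replicate 2. Downstream 30 members from Mir467e to Mir669h held 3887 and 3249. The downstream end thus gave 93.4% of the cluster's counts in replicate 1 and 93.2% in replicate 2. Mir467d and Mir467e, which lie in it, alone made 78.6% and 76.2%, and Mir467e borders the run. Members with windows of their own make up 17 of the 17 upstream genes and 28 of the 30 downstream ones. The part of sequence sharing in the difference between ends and middle was not tested.

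How many reads of the cluster were lost cannot be stated from these files. Reads mapping to several places numbered 1972020 in replicate 1 and 2497097 in replicate 2, or 27.5% and 29.4% of each file. They were 474-fold and 716-fold the counts of the whole cluster. They are not divided by gene, so the counts of the cluster and its members leave out an unknown number of reads. The totals behind CPM leave such reads out too. A ranking among members holds for uniquely placed reads alone. The mice carry a CAST genome copy. Loss of its reads at differences from mm10, or their placement at another member, was not tested. The counts do not separate the parental copies.

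Replicate 2 gave less of the cluster than replicate 1. Of the 9 members with 10 or more counts, 9 had a ratio of replicate 2 to replicate 1 below 1, and the intervals of 5 take in 1. Over all 413 genes tested the median log2 ratio was 0.03, so more lay above 1 than below. The members share libraries, locus and sequence, so their directions are not independent results. In an exact two-sided binomial test, adjusted by Benjamini-Hochberg over all 413 genes tested, 4 of the 9 were lower in replicate 2 and 0 higher, also at an unadjusted p under 0.05. The test sets 1 library against the other and says nothing of conditions. Its p-values and intervals take in counting error alone and no spread between animals or preparations, so they do not show that a ratio exceeds the spread between replicates. Over all genes tested 26.6% were lower and 28.8% higher, so that 55.4% differed in either direction. Mir467d was 1.504-fold lower (1.40 to 1.62, adjusted p = 1.37e-28), Mir467e 1.32-fold (1.22 to 1.42, adjusted p = 7.95e-13) and Mir467c 1.43-fold (1.17 to 1.75, adjusted p = 0.00116). Mir669c was 1.25-fold lower (1.07 to 1.45, adjusted p = 0.00801). All of the detected Mir467 members were thus among the lower ones.

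The 5 other members did not pass. Their ratios were 0.911 for Mir669o (0.757 to 1.10), 0.892 for Mir669l (0.581 to 1.37), 0.509 for Mir669h (0.170 to 1.40), 0.970 for Mir669e (0.354 to 2.70) and 0.873 for Mir466n (0.201 to 3.79). At these depths a difference of the size seen in Mir467c lies inside the interval of Mir669l, Mir669h, Mir669e and Mir466n, but outside that of Mir669o. The sum of all members was 1.37-fold lower in replicate 2 (1.31 to 1.43). The median log2 ratio of the 9 members was -0.32, beside 0.03 over all 413 genes.

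**Figure D3:**
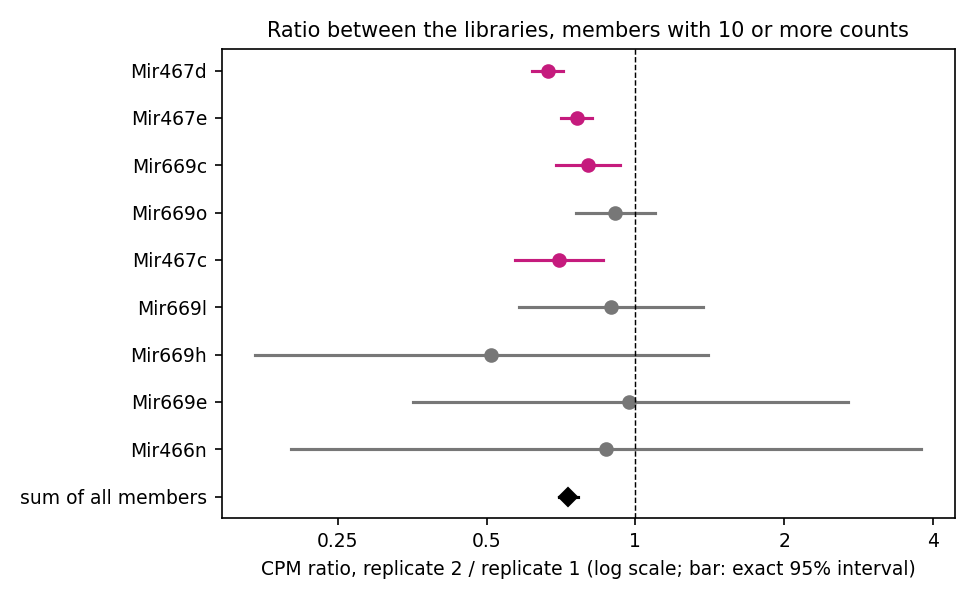
Points give the ratio of CPM in replicate 2 to replicate 1 (log scale) for the 9 members with 10 or more counts, ordered by mean CPM, and the diamond gives the sum of all members; bars are exact 95% intervals for counting error. The 4 members past the exact test, in magenta, lie left of 1 with their whole interval.

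Markers of other cells also differed between the libraries, and their part in the cluster's ratio was not tested. Mir122, of hepatocytes, held 0.379% of counts in replicate 1 but 4.95% in replicate 2. With Mir122 left out of the library totals, the cluster was 1.30-fold lower in replicate 2 (1.25 to 1.36), beside 1.37-fold with it. That setting rescales the totals and removes no other RNA of hepatocytes or other cells. Summed levels of the 3 erythroid markers were 43959 and 19202 CPM, and 2 of the 3 were lower in replicate 2. Those of the 4 white blood cell markers were 3466 and 1710 CPM, with 3 lower and 1 higher, and the endothelial Mir126a was at 155646 and 94732 CPM. The 2 neuroendocrine markers, Mir375 and Mir7b, summed to 30735 and 33904 CPM, both higher in replicate 2. Of the 2 smooth muscle markers, at 52373 and 44598 CPM in sum, 1 was lower, and of the 3 muscle markers Mir1a-1 and Mir133a-1 had no count while Mir206 was at 5.95 and 9.52 CPM.

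The distal Dlk1-Dio3 cluster on chromosome 12, the 38 genes from Mir379 to Mir410, is also imprinted and also an array of duplicated hairpins. There 33 of 38 genes were detected (86.8%), and their sum was 37692 ± 261 CPM, or 3.77% of counts against 0.119% for the Sfmbt2 intron cluster. Sequence sharing differed as well: 6 of its 38 hairpins share a window with another miRNA hairpin and none lacks a window of its own, against 117 and 54 of 119. Of its 34 tested genes 4 were lower and 19 higher in replicate 2. The sum was 37507 CPM in replicate 1 and 37876 in replicate 2. None of these contrasts between clusters was tested.

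**Figure D4:**
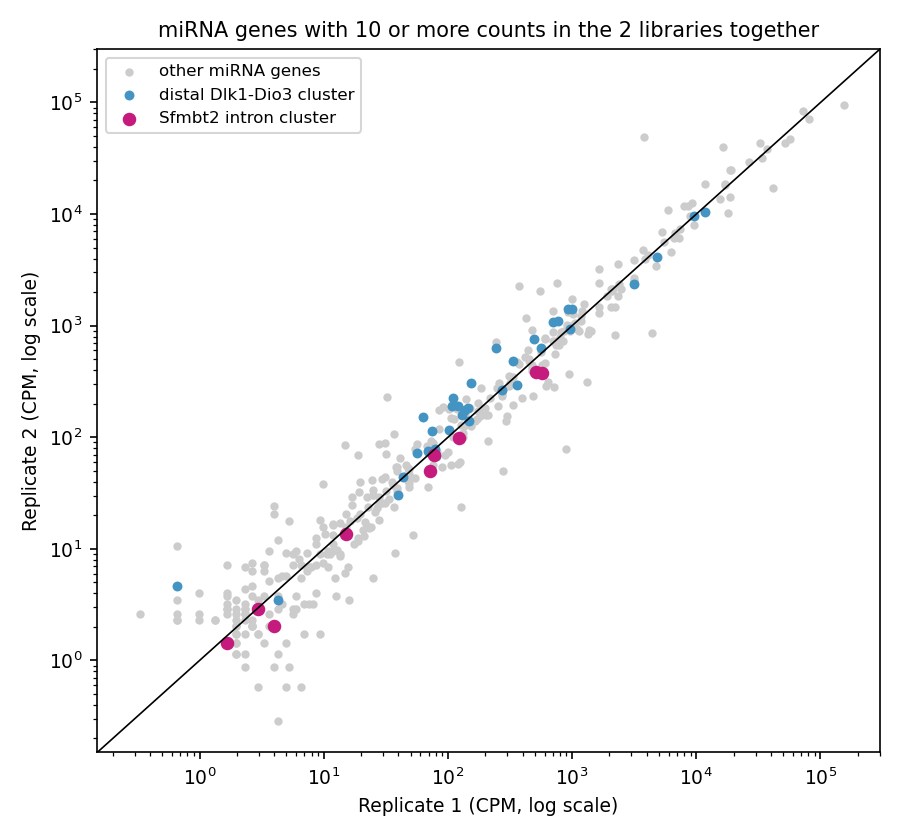
Each point is a miRNA gene whose counts in both libraries sum to at least 10, at its CPM in replicate 1 (horizontal, log scale) and replicate 2 (vertical, log scale), with a line at equal levels. The 9 points of the Sfmbt2 intron cluster lie below the line, and 19 of 34 tested genes of the distal Dlk1-Dio3 cluster were higher in replicate 2.

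The 10 genes of the Mir297, Mir466, Mir467 and Mir669 families outside the cluster lie on chromosomes 3, 5, 7, 9, 10, 11 and 13. Mir466q on chromosome 3 had 1 count in replicate 1 and none in replicate 2, and the other 9 had none. Of the 10 hairpins 9 share a window with another miRNA hairpin, but each has windows of its own, a median of 70.0%. The uniquely placed reads counted for these families were therefore assigned to the Sfmbt2 intron, apart from that 1 count. Whether all of them arose there was not tested.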

How the data were processed

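The authors deposited raw read counts per miRNA gene, 1 file for each of 2 libraries, with no normalization. The deposited notes name mm10 and GENCODE M21, but the sources used here do not say which aligner or counter was used. Sense counts were used. Rows naming no gene held 57.8% and 59.1% of the reads in replicates 1 and 2 and stayed out of totals. Those totals set the precision: intervals (exact, 95%) and the limit of 3 counts cover counting error only, as PCR copies are not independent molecules.

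All gene identifiers matched GENCODE M21. CPM is the count relative to the sense miRNA total of its library. Genes whose summed count reached 10 were compared by an exact two-sided conditional binomial test with Benjamini-Hochberg adjustment at 0.05. The test was tried on data simulated with counting error alone, which lack the wider spread between these libraries. Levels were not tested, there being 1 group. The libraries were counted as 2 samples because their labels name them biological replicates. Their chi-square was 796 per degree of freedom, so they differ beyond counting error, which cannot show that they come from separate animals. Windows of 20 bases were searched on both strands of the 2202 hairpins (GENCODE transcripts), joining those at the same position. The genome was not searched. Of the members 0 of 119 matched the RefSeq sequence table.

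Named genes are all members with 10 or more counts, those at thresholds, those past the test, the leading relatives elsewhere, and others stated to be named later. Members and lists were chosen with earlier results of these data known. Alternatives were unstranded counts, other limits, filters and window lengths, edgeR's TMM, DESeq2's size factors, each library alone, removal of Mir122 and, added later, a search of other transcripts and a restriction to members with windows of their own. RNAfold 2.7.2 and Biopython 1.88 served for hairpins, SciPy 1.17.1 and statsmodels 0.14.6 for tests, pandas 2.3.3 with Python 3.11.15 for tables, and edgeR 4.0.16 and DESeq2 1.42.0 (R 4.3.3) for scaling alone.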

Additional observations from a re-analysis of the deposited data

Results flagged for a closer look

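Multimapping reads, which are assigned to no gene and entered no comparison, numbered 1972020 in replicate 1 and 2497097 in replicate 2. They are given because they are a signal outside the measurement used, with no control sample to set them against. How many belong to the Sfmbt2 intron cluster was not tested. A group of 2 libraries is too small for a search for outlying samples.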

How the results depend on the processing

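The cluster's mean share of counts, 0.119%, was 0.163% with unstranded counts and 1.95e-05% when only genes that share no 20-base stretch were kept in numerator and denominator, since that leaves Mir466g and Gm22239. The cluster's own counts were the same in both columns, while the unstranded totals were lower (2122450 and 2670655) and set aside 902374 and 794418 reads as ambiguous, against 0 in the sense column. The share ranged from 0.101% to 0.138% with a replicate left out. Unstranded counts moved the median log2 ratio of all genes to -0.14 and the split of calls over all genes from 110 lower and 119 higher to 139 and 74. Relative to that median the cluster's ratio of 0.666 becomes 0.734, beside 0.718 for sense counts. With the other settings the ratio ran from 0.718 with edgeR's TMM to 0.767 without Mir122. The same 4 members, Mir467c, Mir467d, Mir467e and Mir669c, were lower and none higher with TMM, DESeq2's size factors, unstranded counts, no filter, 20 or more counts and an adjusted p under 0.01. The 9 tested members kept their direction and side of the threshold in 51 of 51 pairs of gene and setting. Part of this is built in. The filters and the stricter threshold leave every ratio as it was, and a stricter threshold can only remove calls. The other settings change the library totals alone, since the cluster's counts stayed the same. Detected members numbered 9 at 1 CPM and 6 at 5 or 10 CPM. Members with a window of their own numbered 65 with windows of 18, 20 or 22 bases, and also when other annotated transcripts were searched, an alternative chosen after seeing the data. In that search the number of own windows fell in some members, as in Mir669c from 73 to 63. It stayed the same in others, as in Mir467c at 47. The percentages of own windows given above are thus upper limits. No paired analysis was possible because there is 1 group. Depth limits Mir466n, with 10 counts and an interval of 0.201 to 3.79, more than Mir669o, with 474 counts and 0.757 to 1.10.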
